A study of Mus musculus with 10 samples.

Results

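Granzymes are serine proteases that killer lymphocytes store in cytotoxic granules together with the pore-forming protein perforin. The 10 genes described here are *Gzma*, *Gzmb*, *Gzmk*, *Gzmm*, *Prf1*, *Nkg7*, *Cst7*, *Fasl*, *Ctsw* and *Srgn*, out of 56691 genes listed for mouse colon. They were taken by gene symbol, but the set was selected on measured values, because the difference between ceAF-treated and DSS-only mice was known when the genes were picked. Their values in that comparison are therefore given as a description, without a test. All 10 genes had reads in every mouse, and 9 passed the filter on low counts that left 16545 genes for testing. *Gzmm*, with 2 to 11 reads per mouse, did not pass.

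The study asked how chick early amniotic fluid (ceAF) acts on colitis caused by dextran sulfate sodium (DSS), a sulfated sugar polymer that injures the colon epithelium. RNA was sequenced from colon tissue of 10 male C57/BL6 mice, bought at 8 weeks of age. The 5 mice of the DSS group drank 3% DSS for 7 days, and the 5 mice of the ceAF group drank the same DSS for 7 days and were then gavaged with 15 mL/kg ceAF over 10 days. Untreated mice were not analysed here, so no value shows the level before colitis, and the day on which colon was taken from the DSS group is not given in the sources used here. If it was not that of the ceAF group, time since DSS differs together with treatment, and the 2 cannot be told apart. Mice are called DSS-1 to DSS-5 or ceAF-1 to ceAF-5, and a series of 5 values follows these numbers. The counted reads of a library ranged from 16275884 to 19901549 with DSS alone and from 14676471 to 18811795 with ceAF. Levels of a gene across mice are in counts per 1000000 reads (CPM) on library sizes scaled with TMM, the trimmed mean of M-values, and levels of different genes are compared in FPKM, which also divides by gene length.

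When a killer cell meets its target, granules fuse with the membrane at the contact site, perforin opens the target membrane, and granzymes enter and cleave proteins inside. Granzyme B cleaves caspases after aspartate, whereas granzymes A and K cut after lysine or arginine. In the intestine, granzymes A and B are stored by lymphocytes that reside within the epithelium, many of them CD8 or γδ T cells, while *Gzmk* is best known from CD8 T cells of an effector memory type. *Cst7* encodes cystatin F, an inhibitor of the cathepsins that activate granzymes, and is grouped here with *Gzmk*, although it is also expressed by myeloid cells.

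Some libraries stood apart from the rest. The summed CPM of 5 leukocyte markers (*Ptprc*, *Cd52*, *Coro1a*, *Laptm5*, *Lcp1*) was 776 in DSS-1, 326 in DSS-2, 350 in DSS-3, 336 in DSS-4 and 160 in DSS-5. It was 114, 243, 255, 110 and 231 in the 5 ceAF mice. DSS-1 was the highest of all mice, while DSS-5 fell within the ceAF range. DSS-1 was also far above the others in neutrophil markers (summed CPM of 7 genes 1823, with 21.1 to 551 over the other 9 mice). Within the ceAF group, ceAF-1 stood apart: it was the lowest of all mice in the summed CPM of B and plasma cell markers (85.9, with 297 to 657 in the other ceAF mice) and of macrophage markers (67.8, with 158 to 243), and its differences from the other ceAF libraries were the largest of that group (chi-square per gene 112 to 149, with 26.4 to 99.6 among the other 4). In the DSS group, the chi-square per gene was largest for DSS-5 (84.6 to 97.5, with 14.7 to 53.6 among the other 4). Without ceAF-1, *Gzmk* had a log2 fold change of -2.59 and *Cst7* of -1.65. Some results are also given without DSS-1, DSS-5 or ceAF-1.

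*Gzmk* (ENSMUSG00000042385, chr13:113308142-113362442, minus strand, position as deposited with no build named) was measured at 3.07, 5.90, 4.91, 7.75 and 2.94 CPM in the 5 DSS mice. In the 5 ceAF mice it was measured at 1.60, 1.37, 1.26, 0.358 and 0.275 CPM. No ceAF mouse reached the lowest DSS mouse, and ceAF-4 and ceAF-5 were lowest, with 6 and 5 reads. DSS-1 and DSS-5 were the lowest DSS mice and DSS-4 the highest. The group means were 4.91 ± 2.02 and 0.973 ± 0.612 CPM (SD, n = 5), a log2 fold change of -2.35 (SE 0.49), or 5.08-fold lower in the ceAF group. In bulk tissue, fewer cells of a type and less RNA per cell cannot be told apart, which holds for all values below.

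*Gzma* (ENSMUSG00000023132, chr13:113230359-113237515, minus strand, build not named) lies on the same chromosome as *Gzmk*. It was measured at 13.4, 42.3, 43.5, 35.7 and 15.3 CPM in the 5 DSS mice, and at 31.7, 30.1, 14.6, 12.9 and 17.8 CPM in the 5 ceAF mice. The groups overlapped widely: DSS-1 and DSS-5 were as low as ceAF-3 and ceAF-4, and ceAF-1 and ceAF-2 came close to DSS-4. The group means of 30.0 ± 14.7 and 21.4 ± 8.83 CPM (SD, n = 5) differed by less than the SD of the DSS group, and the log2 fold change was -0.49 (SE 0.38). Without DSS-1 and DSS-5, left out together after the data were seen, the log2 fold change was -0.92.

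*Gzmb* (ENSMUSG00000015437, chr14:56496295-56499717, minus strand, build not named) was measured at 16.6, 55.5, 53.6, 55.2 and 17.4 CPM in the 5 DSS mice, and at 25.2, 41.9, 17.8, 7.76 and 6.16 CPM in the 5 ceAF mice. DSS-1 and DSS-5 were again no higher than several ceAF mice, and only ceAF-4 and ceAF-5 were below all DSS mice. The log2 fold change was -1.01 (SE 0.55), and without DSS-1 and DSS-5 it was -1.47. *Gzmm*, encoding granzyme M, ranged from 0.359 to 0.638 CPM with DSS alone and from 0.153 to 0.537 CPM in the ceAF group, which overlapped. Among the granzymes, *Gzmk* was thus the member whose groups were separate, although per gene length it was the least abundant of the 3 that were tested. Mean *Gzma* and *Gzmb* in the DSS group were 29.9 ± 14.6 and 27.6 ± 14.1 FPKM and differed by less than the SD between mice, while *Gzmk* was 3.53 ± 1.34 FPKM (SD, n = 5).

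*Cst7* (ENSMUSG00000068129, chr2:150412335-150420864, plus strand, build not named) was measured at 3.30, 3.10, 3.53, 2.75 and 0.900 CPM in the 5 DSS mice, and at 0.382, 0.911, 1.04, 0.835 and 0.660 CPM in the 5 ceAF mice. In 4 of the DSS mice it was above every ceAF mouse, and DSS-5 fell among the ceAF mice. The log2 fold change was -1.81 (SE 0.38). DSS-1, which was low in all 3 abundant granzymes, was not low in *Cst7*.

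Among the 9 members tested, all 9 had negative log2 fold changes and 6 were lower at an unadjusted p-value under 0.05 (*Gzmk*, *Cst7*, *Nkg7*, *Ctsw*, *Srgn* and *Fasl*). Without DSS-1, *Srgn* (-0.60) was no longer at that threshold, nor was *Fasl*, whose log2 fold change hardly moved (-0.98, and -0.94 with all mice), whereas *Gzmb* (-1.20) and *Prf1* (-1.27) were, and without DSS-5 *Prf1* was added to the 6. Over all 16545 genes tested, 607 (3.67%) were lower and 539 (3.26%) higher at an unadjusted p-value under 0.05. These were 321 and 391 without DSS-1, 762 and 847 without DSS-5, and 997 and 875 without ceAF-1. At an adjusted p-value under 0.05, edgeR's quasi-likelihood test called 0 of the 9 members and 0 of the 16545 genes, with 30 genes called by DESeq2. Groups without overlap in the lower direction were found for 1 member, against 77 (0.465%) of the 16545 genes, and 128 (0.774%) did not overlap in the other direction. In FPKM as deposited the order turned, with 146 and 54 genes, and without ceAF-1 the numbers were 315 and 346. Since the members were chosen by this comparison, nothing is read from these counts.

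**Figure D1:**
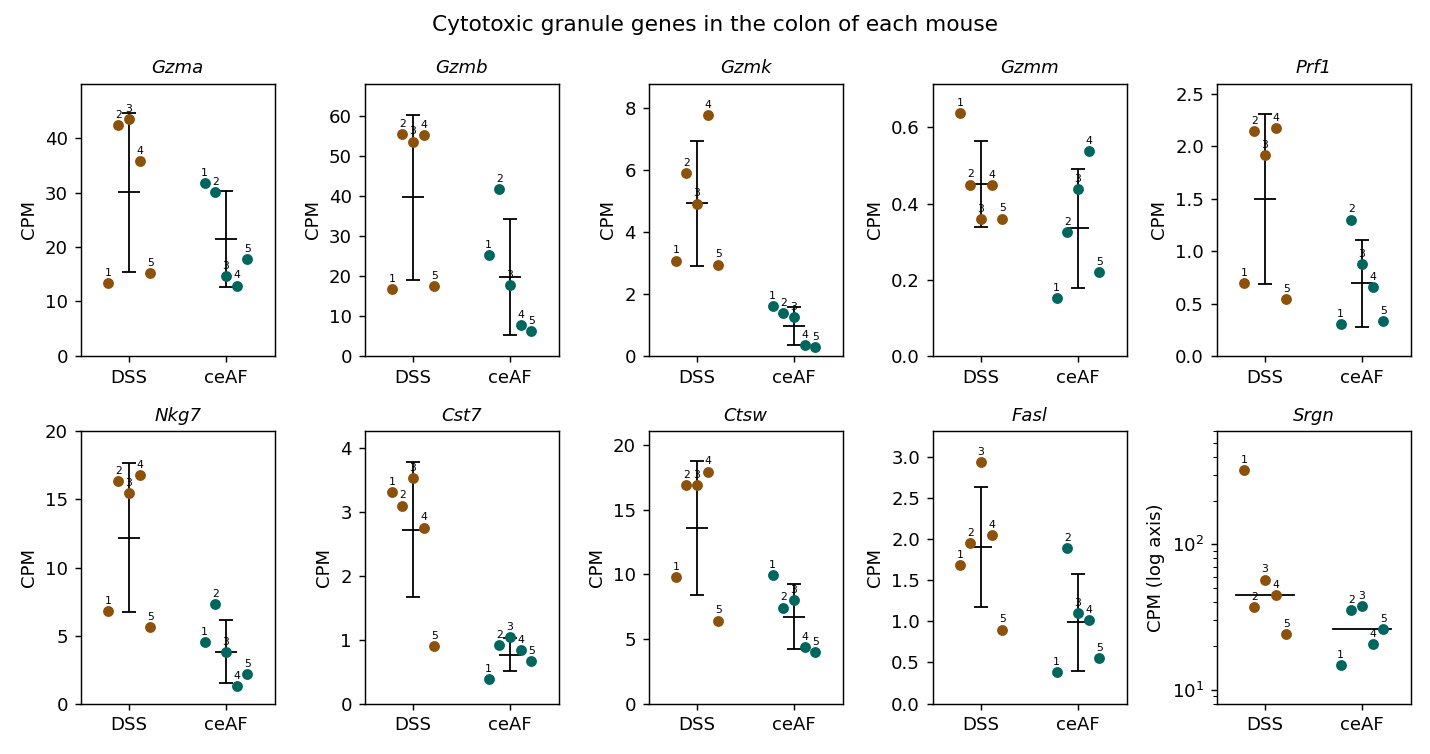
TMM-normalized CPM of the 10 members in each mouse, with DSS mice in brown and ceAF mice in green, numbered 1 to 5. Horizontal marks with bars are group means ± SD, except for *Srgn*, which has a log axis and lines at the medians; *Gzmk* alone shows every ceAF mouse below every DSS mouse.

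The pair *Gzmk* and *Cst7*, of the effector memory type, was compared with the resident pair *Gzma* and *Gzmb* within each mouse, as the mean log2 CPM of the first pair minus that of the second. This difference was -2.21, -3.48, -3.52, -3.25 and -3.27 in the 5 DSS mice, and -5.05, -4.92, -3.75, -4.04 and -4.43 in the 5 ceAF mice. Every ceAF mouse was below every DSS mouse, and ceAF-3 was closest to the DSS range. The group means were -3.14 ± 0.54 and -4.44 ± 0.56 (SD, n = 5), a difference of -1.29 on the log2 scale, which was larger than the SD within either group. Without DSS-1, the mouse with the smallest difference between the pairs, it was -1.06. On log2(FPKM + 1), where the pseudocount shrinks low genes, it was -0.478. It is a description, since the pairs were defined from the same comparison.

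Taken alone against *Gzma* or *Gzmb*, *Gzmk* gave groups without overlap, whereas *Cst7* gave groups that overlapped. The mean differences of *Cst7* were also lower in the ceAF group, so both genes entered the difference between the pairs. The genes were picked on this comparison, and *Gzmk* was not tested against *Cst7*. The log2 level of *Gzmk* minus that of *Gzma* was lower in every ceAF mouse than in any DSS mouse (means -4.57 ± 0.84 and -2.52 ± 0.44, SD, n = 5), and the same held for *Gzmk* minus *Gzmb* (-4.20 ± 0.43 and -2.89 ± 0.44). For *Cst7* minus *Gzma* and *Cst7* minus *Gzmb* the groups overlapped, with differences between groups of -1.27 and -0.54. *Gzmb* minus *Gzma* differed by -0.73 between groups, with overlap.

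A simpler form of the same contrast is the share of *Gzmk* among all reads of *Gzma*, *Gzmb* and *Gzmk*, which needs no scaling between libraries and was chosen after the values were seen. It was 9.28% in DSS-1 (53 of 571 reads, 95% Wilson interval 7.17% to 11.9%), 5.69% in DSS-2, 4.81% in DSS-3, 7.85% in DSS-4 and 8.26% in DSS-5. In the ceAF group it was 2.74% in ceAF-1, 1.87% in ceAF-2, 3.74% in ceAF-3, 1.70% in ceAF-4 and 1.13% in ceAF-5 (5 of 441 reads, 0.485% to 2.63%). The highest ceAF mouse was below the lowest DSS mouse, but the interval of ceAF-3 (2.50% to 5.55%) overlapped with those of DSS-2 (4.77% to 6.77%) and DSS-3 (3.89% to 5.93%), and that of ceAF-1 (1.80% to 4.16%) with that of DSS-3. DSS-1 and DSS-5, which were low in all 3 granzymes in CPM, were not low in this share. The means were 7.18% ± 1.86 and 2.24% ± 1.02 (SD, n = 5). Intervals cover counting error only.

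**Figure D2:**
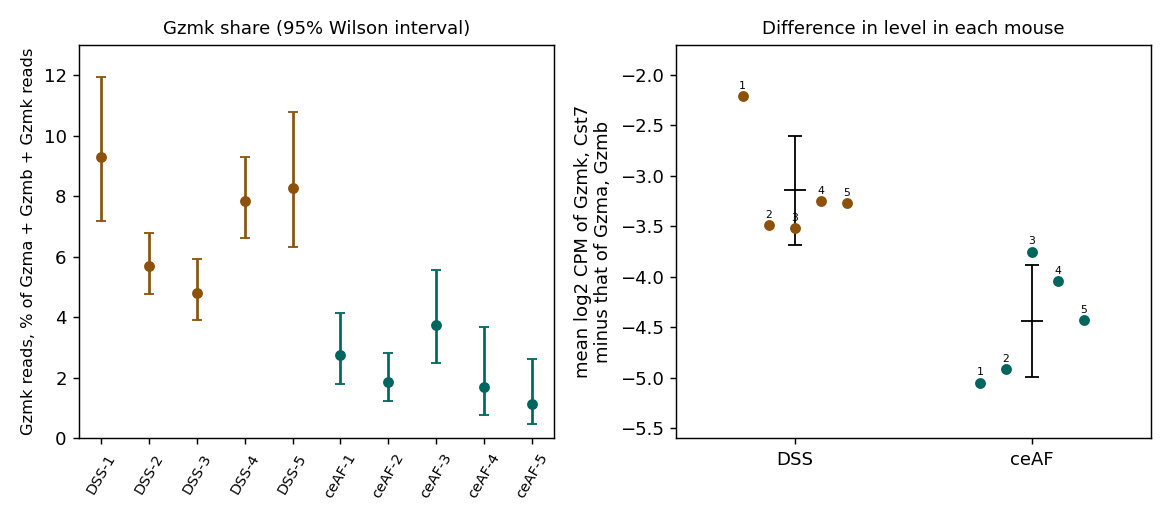
Left, reads of *Gzmk* as a percentage of the reads of *Gzma*, *Gzmb* and *Gzmk* in each mouse, with 95% Wilson intervals; DSS mice lie between 4.81% and 9.28% and ceAF mice between 1.13% and 3.74%. Right, mean log2 CPM of *Gzmk* and *Cst7* minus that of *Gzma* and *Gzmb* in each mouse, with the mean ± SD of each group (n = 5), where no ceAF mouse reaches the DSS range.

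T cell genes were lower in the ceAF group as well, so the members were also expressed relative to them, as log2 CPM minus the mean log2 CPM of *Cd3d*, *Cd3e* and *Cd3g*, which encode chains of the T cell receptor complex. The log2 fold changes of these genes in the same comparison were -1.52, -1.19 and -1.47. A member that fell less than they did therefore rises relative to them by construction. *Gzmk* relative to these genes was -2.09, -1.47, -1.72, -1.09 and -0.90 in the 5 DSS mice, and -1.95, -2.23, -2.09, -3.11 and -3.53 in the 5 ceAF mice. The groups overlapped through DSS-1 alone, since the other 4 DSS mice were above all ceAF mice, and the means differed by -1.13. *Gzma* went the other way: it was 1.07 ± 0.61 above the *Cd3* genes with DSS alone and 1.98 ± 0.38 with ceAF (SD, n = 5), with overlap. *Gzmb* differed by 0.19 and *Cst7* by -0.35 between groups on this scale, both less than the SD within the ceAF group, although for *Cst7* more than that within the DSS group (0.24). Relative to the *Cd3* genes, *Prf1* (0.31), *Ctsw* (0.34), *Fasl* (0.32), *Srgn* (0.10) and *Nkg7* (-0.41) all overlapped between groups.

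*Cd8b1*, the CD8 β chain, had the most negative log2 fold change of the T cell reference genes. It was measured at 8.46, 8.50, 10.1, 9.35 and 5.46 CPM in the 5 DSS mice, and at 2.37, 2.99, 2.52, 1.61 and 0.440 CPM in the 5 ceAF mice. As for *Gzmk*, no ceAF mouse reached the DSS range. The same held for *Cd8a*, at 15.25 to 34.78 CPM with DSS alone and 5.662 to 14.19 CPM with ceAF. *Gzmk* relative to *Cd8b1* differed by -0.21 between groups, less than the SD within either, whereas *Gzma* relative to *Cd8b1* was higher in every ceAF mouse than in any DSS mouse (3.53 ± 1.02 against 1.69 ± 0.66 on the log2 scale, SD, n = 5). These 2 ratios were chosen after the values were seen. With *Cd8b1* at a log2 fold change of -2.08 and *Gzma* at -0.49, the direction of *Gzma* relative to *Cd8b1* follows from the choice of *Cd8b1*. How many other genes would separate on such a ratio was not counted.

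*Prf1* encodes perforin. It was measured at 0.695, 2.15, 1.92, 2.18 and 0.540 CPM in the 5 DSS mice, and at 0.305, 1.30, 0.877, 0.656 and 0.330 CPM in the 5 ceAF mice. As for *Gzmb*, DSS-1 and DSS-5 lay within the ceAF range, and the log2 fold change was -1.10 (SE 0.51). Per gene length it was among the least abundant members, at 0.578 ± 0.306 FPKM in the DSS group (SD, n = 5).

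*Nkg7*, a membrane protein of the granules needed for their release, was measured at 6.78, 16.3, 15.5, 16.8 and 5.64 CPM in the 5 DSS mice, and at 4.50, 7.29, 3.78, 1.31 and 2.2 CPM in the 5 ceAF mice. Only ceAF-2 reached the DSS range, above DSS-1 and DSS-5. The log2 fold change was -1.68 (SE 0.47). *Ctsw*, encoding the lymphocyte protease cathepsin W, ranged from 6.42 to 17.9 CPM with DSS alone and from 3.96 to 9.92 CPM with ceAF, at a log2 fold change of -1.02 (SE 0.34). Its groups overlapped, since ceAF-1 exceeded DSS-1 and DSS-5, and ceAF-2 and ceAF-3 exceeded DSS-5. *Fasl*, which encodes the Fas ligand, a death ligand that acts without granule contents, ranged from 0.900 to 2.93 CPM with DSS alone and from 0.382 to 1.89 CPM with ceAF, overlapping, at a log2 fold change of -0.94 (SE 0.43).

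*Srgn* encodes serglycin, the proteoglycan that packs granule contents in lymphocytes and also in mast cells, neutrophils and macrophages. It was measured at 325, 37.1, 57.2, 44.8 and 24.3 CPM in the 5 DSS mice, and at 14.8, 35.5, 37.7, 20.5 and 26.0 CPM in the 5 ceAF mice. DSS-1 held more than all other DSS mice together, and the rest of the DSS group overlapped with the ceAF group. The log2 fold change of -1.86 (SE 0.67) was -0.60 without DSS-1. The neutrophil marker *S100a9* was 697 CPM in DSS-1, between 5.05 and 84.6 CPM in the other DSS mice and between 0.305 and 13.4 CPM in the ceAF mice. Of the 7 neutrophil markers, 6 were tested, all 6 were lower in the ceAF group and 5 did so at an unadjusted p-value under 0.05, or 1 without DSS-1. The most abundant, *Ly6g*, did not follow this pattern, at 229 CPM in DSS-1 and 482 CPM in DSS-5. The part of these cells in the value of *Srgn* was not tested.

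Ordered by mean FPKM in the DSS group, *Srgn* was first only because of DSS-1 (median 19.4 FPKM). *Gzma* and *Gzmb* followed, then *Nkg7* (13.4 ± 5.84), *Ctsw* (7.21 ± 2.64), *Gzmk* (3.53 ± 1.34), *Cst7* (2.78 ± 1.11), *Fasl* (0.988 ± 0.385), *Prf1* (0.578 ± 0.306) and *Gzmm* (0.310 ± 0.082; SD, n = 5). The means of *Gzmk* and *Cst7* differed by less than their SD between mice, as did those of *Gzma* and *Gzmb*. Both genes of a pair come from the same mice, and this SD leaves the pairing out. Within mice, *Gzma* was above *Gzmb* in every DSS mouse but DSS-4 and in every ceAF mouse. *Gzmk* was above *Cst7* in DSS-2, DSS-4 and DSS-5 but not in DSS-1 or DSS-3. In the ceAF group the mean of *Gzma* was 20.8 ± 7.63 FPKM and that of *Gzmb* 13.3 ± 9.76 FPKM, while *Gzmk* and *Cst7* were 0.672 ± 0.399 and 0.774 ± 0.262 FPKM, near *Fasl* (0.508 ± 0.299).

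How the members varied among mice of 1 group was examined with the difference between groups removed, although the members were picked on that difference. For the 6 pairs among *Gzmk*, *Cst7*, *Gzma* and *Gzmb*, log2 CPM was centred on the mean of each group and correlated over the 10 mice, with an exact permutation of mice within groups, two-sided, and Benjamini-Hochberg adjustment over the 6 pairs. *Gzmk* and *Gzmb* correlated most closely, with Pearson's r = 0.91 (exact permutation p = 0.00306, adjusted 0.0183) and Spearman's rho = 0.89 (p = 0.00701, adjusted 0.0421). Without ceAF-4 and ceAF-5, the 2 mice farthest from the median of *Gzmk*, r was 0.86 around the group means of all 10 mice, as for the 2 mice farthest from a median below. Without DSS-1 and DSS-5, centred on the means of the remaining mice, it was 0.91. *Gzma* and *Gzmb* also correlated, with r = 0.84 (exact permutation p = 0.00944, adjusted 0.0283) and rho = 0.70 (p = 0.0165, adjusted 0.0496), and without DSS-1 and DSS-5, which were also the 2 farthest from the median of *Gzma*, r was 0.74 around the means of the remaining mice and 0.78 around those of all 10. With 1 mouse left out, the adjusted p-value for r remained under 0.05 in 9 of 10 runs for *Gzmk* and *Gzmb* but in 3 of 10 for *Gzma* and *Gzmb*.

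*Gzmk* and *Gzma* gave r = 0.66 (exact permutation p = 0.0374, adjusted 0.0749) and rho = 0.50 (p = 0.0758, adjusted 0.152), which did not pass the adjustment, with r = 0.73 without ceAF-4 and ceAF-5. For *Gzmk* and *Cst7*, the pair placed in 1 type, no correlation was found: r = 0.14 (exact permutation p = 0.667, adjusted 0.764) and rho = 0.079 (p = 0.836, adjusted 0.943), with r = 0.22 without ceAF-4 and ceAF-5. *Cst7* gave r = 0.17 with *Gzma* (exact permutation p = 0.764, adjusted 0.764; rho = 0.22, p = 0.599, adjusted 0.898) and r = 0.27 with *Gzmb* (exact permutation p = 0.476, adjusted 0.715; rho = 0.030, p = 0.943, adjusted 0.943). Without DSS-5 and ceAF-1, the mice farthest from the median of *Cst7*, these were 0.057 and 0.45. Without DSS-1 and DSS-5, centred on the remaining mice, the 3 correlations of *Cst7* were negative (-0.17 with *Gzmk*, -0.50 with *Gzma* and -0.029 with *Gzmb*), and *Gzmk* with *Gzma* gave 0.58. With 1 mouse left out, *Cst7* gave from -0.18 to 0.45 with *Gzmk*, from -0.38 to 0.43 with *Gzma* and from -0.062 to 0.48 with *Gzmb*, the lowest value of each without DSS-5 and the highest without ceAF-1. Within groups, *Gzmk* thus varied with *Gzmb* of the resident pair, and its correlation with *Cst7* did not pass the test. All 10 libraries share 1 scaling, and the mice low within their group in both *Gzmk* and *Gzmb* were DSS-1, DSS-5, ceAF-4 and ceAF-5.

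**Figure D3:**
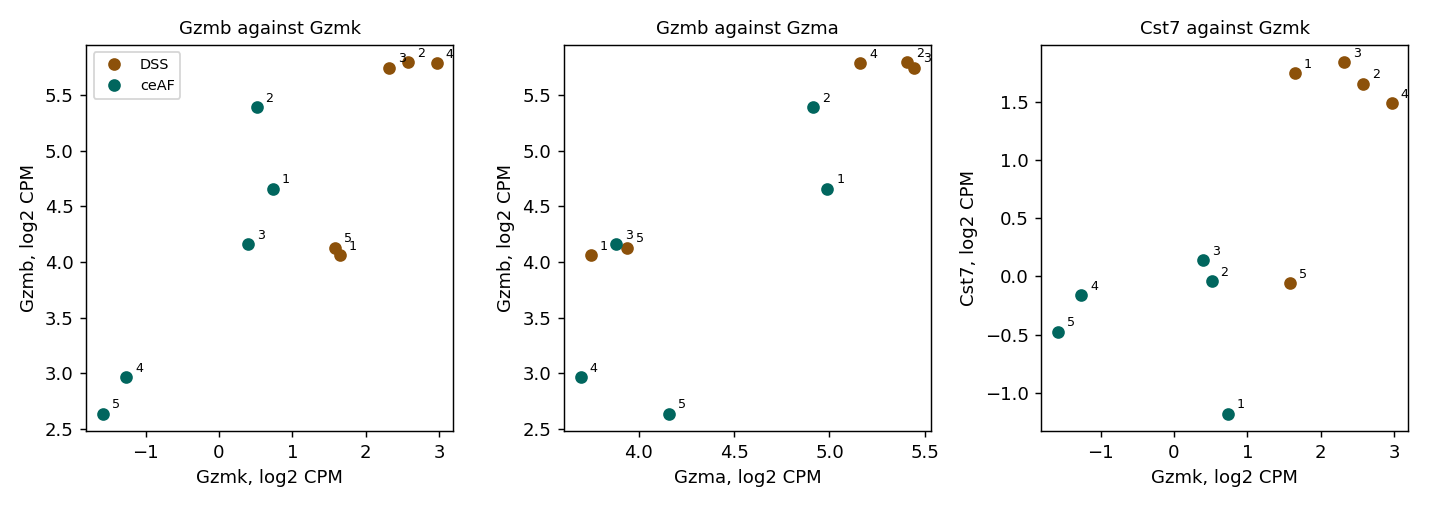
Log2 CPM of 3 pairs of members in each mouse, DSS in brown and ceAF in green, numbered 1 to 5. Within each group *Gzmb* is higher where *Gzmk* is higher (r = 0.91 after centring on group means) and where *Gzma* is higher (r = 0.84), whereas *Cst7* against *Gzmk* gives r = 0.14.

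The genes whose group-centred log2 CPM was most like each of these 4 members were listed among 15359 other tested genes with a mean of at least 1 CPM. For *Gzmk* they were *Pdcd10*, *Arf6*, *Clrn3*, *Akr1a1* and *Irf1*, with r of 0.98 to 0.96 over 10 mice. For *Gzmb* they were *Irf1* (0.96), *Nkg7* (0.95), *Gm8714*, *Irf8* and *Nr3c2* (0.93). *Irf1*, which encodes an interferon-regulated transcription factor, was thus listed for both, and *Nkg7* is itself a member. *Gzma* was most like *Coro6* (0.95), *Baiap3*, *Tigd2*, *Maip1* and *Plaat3* (0.92), and *Cst7* most like *Gm19585* (0.97), *Adamts14*, *Akr1b10*, *Ccr2* (0.96) and *Gm36723*. *Ccr2* encodes a chemokine receptor of monocytes and of some T cells. With this many genes and 10 mice, values this high describe the mice and carry no test.

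The remaining genes of granule biology were taken from fixed lists and are given by their counts beside all tested genes, of which 48.6% had a negative log2 fold change, with a median of 0.0076. Of 6 other granzymes, *Gzmc* was the most abundant with 38 reads in all mice together, *Gzmd* and *Gzmf* had 1 read each, and *Gzme*, *Gzmg* and *Gzmn* had 0. These genes and *Gzmb* are related in sequence, and how reads shared between them were counted is not stated. Of 19 tested genes for granule maturation and release, 10 were lower and 9 higher (median log2 fold change -0.018). *Stx11*, a syntaxin needed for granule release, was the only gene of that list at an unadjusted p-value under 0.05 (log2 fold change -2.16, SE 0.78). It was at 41.2 CPM in DSS-1 and at most 5.99 CPM elsewhere, and its value without DSS-1 was -0.64, no longer at that threshold. The count of the list was also 0 on log2(FPKM + 1), and it was 2 without DSS-2. *Ctsc*, which encodes the cathepsin that activates granzymes and is expressed in many cell types, had a log2 fold change of 0.045 (SE 0.17), and *Lamp1*, a membrane protein of lysosomes and granules, had -0.11 (SE 0.12).

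Of 3 granzyme inhibitors, *Serpinb9*, which inhibits granzyme B, had a log2 fold change of -0.13 (SE 0.20), *Serpinb6b*, a serpin of the same family, had -0.92 (SE 0.33), at an unadjusted p-value under 0.05, and *Serpinb9b* was too low to test. On the side of the target cell, 10 genes of death receptors and caspases were tested, of which 4 were lower and 6 higher, 0 of them at an unadjusted p-value under 0.05, and the median was 0.018. *Fas*, the receptor of the Fas ligand, was at -0.21 (SE 0.23). Among 9 tested transcription factors of killer lymphocytes, 8 were lower, with a median of -0.40 (-0.22 without DSS-1), and 2 were lower at an unadjusted p-value under 0.05: *Tbx21*, encoding T-bet, at -1.50 (SE 0.47) and *Runx3* at -0.81 (SE 0.30). *Eomes*, a relative of T-bet, was at -0.12 (SE 0.65). Without DSS-1, *Tbx21* and *Serpinb6b* (-0.89) kept an unadjusted p-value under 0.05 and *Runx3* (-0.65) did not, and no gene of these lists passed an adjusted p-value under 0.05 in edgeR's test.

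Marker genes of the 2 cell types behind the comparison were examined next. All 9 effector memory type markers had negative log2 fold changes, with a median of -0.72, and 3 were lower at an unadjusted p-value under 0.05 (*Cd27* -1.40, *Klf2* -1.14 and *Cxcr3* -0.90). Without DSS-1 the median was -0.595, *Klf2* was at -0.602 and 2 of the 9 were positive. Of 14 resident intraepithelial lymphocyte markers, 13 were negative, with a median of -0.47, and 3 were lower at an unadjusted p-value under 0.05 (*Gpr55* -0.92, *Cd160* -0.89 and *Il2rb* -0.88). Without DSS-1 the counts at that threshold were 3 and 5, and without DSS-5 they were 4 and 6. Within the resident list, the γδ T cell receptor genes *Trgc1* (0.015, SE 0.41), *Trgc2* (-0.23, SE 0.47) and *Trdc* (-0.27, SE 0.40) had log2 fold changes smaller than their SE. The difference between the 2 lists was not tested. Their summed CPM in the 5 DSS mice was 127, 60.6, 63.0, 74.2 and 38.9 for the effector memory type and 154, 154, 152, 130 and 100.2 for the resident type. In the 5 ceAF mice the sums were 28.8, 56.8, 55.3, 34.2 and 37.1, and 91.5, 124, 107, 86.6 and 101, the resident list being led by *Itga1*. Both sums overlapped between groups. The resident sum had a mean of 138.1 CPM with DSS alone, of which *Itga1* gave 55.21 CPM, and of 102.2 CPM with ceAF, of which it gave 47.05 CPM. Whether these *Itga1* reads come from lymphocytes was not tested.

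T cell genes moved with the members. All 10 T cell markers were lower at an unadjusted p-value under 0.05 (median log2 fold change -1.24), and 9 of them without DSS-1 (median -1.197). Their summed CPM was 123, 124, 125, 135 and 43.3 in the 5 DSS mice and 45.6, 66.5, 50.7, 27.9 and 34.4 in the 5 ceAF mice, led by *Cd3g*. DSS-5 lay within the ceAF range, as it did for *Cst7*, *Gzmb* and *Prf1*. DSS-1, which was low in *Gzma*, *Gzmb* and *Prf1*, was not low in this sum. *Cd8a* (-1.42, SE 0.31), *Cd8b1* (-2.08, SE 0.40) and *Cd4* (-1.14, SE 0.41) were lower at an unadjusted p-value under 0.05. Among the reference genes, *Cd3d* was at -1.52, *Cd3e* at -1.19 and *Cd3g* at -1.47. Without DSS-5, 1 of the 10 T cell markers passed an adjusted p-value under 0.05 by edgeR. The part of T cell number in the members' values was not tested.

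Natural killer cells also carry granzymes and perforin. Of 8 NK cell markers 4 were tested, 3 lower and 1 higher, 0 at an unadjusted p-value under 0.05 (median log2 fold change -0.24). Without DSS-5, 1 was at that threshold and the median was -0.417. The defining receptor gene *Ncr1* had 43 reads in all mice together and 0 in DSS-1, and the summed CPM was 14.9, 19.3, 23.5, 18.2 and 6.36 in the 5 DSS mice and 14.3, 16.5, 15.9, 6.98 and 12.7 in the 5 ceAF mice, led by *Klrd1*, which T cells also express. All 8 NK markers overlapped between groups. Of 10 mast cell markers 4 were tested and 1, *Hdc*, was at an unadjusted p-value under 0.05 (log2 fold change -4.14). *Hdc* was at 150.0 CPM in DSS-1, and without DSS-1 (-1.27) or with DESeq2 it was not at that threshold. The most abundant was *Kit*, which other cells of the gut wall express too, *Tpsab1* had 1 read in all mice together, and the list's sum was 201 in DSS-1, the other 9 mice ranging from 33.1 to 60.8.

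Macrophage markers, which bear on *Cst7* and *Srgn*, were negative in log2 fold change in 8 of 8 genes, 2 at an unadjusted p-value under 0.05 (*C1qa* -0.62 and *Adgre1* -0.58), with a summed CPM of 430, 232, 262, 238 and 195 in the 5 DSS mice and 67.8, 204, 233, 158 and 243 in the 5 ceAF mice, led by *Lyz2*. The 2 calls were lost without DSS-1, where the values were -0.52 and -0.51, and also without any 1 of 5 other mice. Of 5 leukocyte markers 4 were lower at that threshold, or 3 without DSS-1, with a median of -1.07 (-0.67 without DSS-1). B and plasma cell markers were lower in 6 of 6 genes, 0 at that threshold, with a median of -0.49, which was 0.14 without DSS-1. As for *Srgn*, DSS-1 was the highest mouse in all 3 of these lists and in neutrophil markers, but not in *Gzma*, *Gzmb* or *Gzmk*.

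Epithelial and regional genes were examined because resident lymphocytes differ along the gut. Of 11 colon epithelium markers 5 were lower and 6 higher, 0 at an unadjusted p-value under 0.05, their median log2 fold change being 0.074, and their most abundant gene was *Muc2*. *Car1*, a carbonic anhydrase of colon surface cells, was at 1118, 4653, 7774, 4956 and 115 CPM in the 5 DSS mice and at 11920, 814, 3344, 753 and 505 CPM in the 5 ceAF mice. *Hoxb6*, a gene of position along the gut, was at 1.27, 25.3, 36.6, 22.4 and 0.960 CPM in the 5 DSS mice and at 91.0, 0.846, 17.4, 2.98 and 0.880 CPM in the 5 ceAF mice. The 3 DSS mice high in *Gzma* and *Gzmb* were high in both, and so was ceAF-1, whereas ceAF-2 was high in *Gzma* and *Gzmb* and low in both, and ceAF-3 was low in *Gzma* but not in *Hoxb6*. Other genes of position set ceAF-1 apart from those 3 DSS mice, with *Hoxb13* at 6.18 CPM (93.0 to 112 in the 3) and *Hoxa13* at 3.13 CPM (41.4 to 79.7). The part of these genes in the levels of *Gzma* and *Gzmb* was not tested. Of the colon position genes 4 were tested, and *Hoxd13* was higher at an unadjusted p-value under 0.05 (2.91, SE 1.23), but not without DSS-1 (2.79), with ceAF-2 and ceAF-3 at 121 and 109 CPM. Of the small intestine markers, *Sis* (-0.035, SE 1.41) and *Fabp6* (-1.03, SE 0.90) were tested, with sums of 60.4 CPM in DSS-2, 30.8 in ceAF-1 and 0.954 to 14.5 in the others.

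Promoter sequence is shown for the 4 genes of the comparison, because the pairs they form differed in log2 fold change. RefSeq windows on GRCm38.p6 were matched by symbol for 9 of the 10 members, not for *Ctsw*. In the 250 bases before the start, 2 motifs chosen after the values were seen were searched on both strands: TGTGGT, a core of sites of RUNX factors, found in 14.0% of 32851 promoters, and GGTGTG, a core of T-box sites, found in 16.3%. The motifs share letters and can overlap, and 3.67% of promoters hold both. Capitals mark a match on either strand. The windows, all 5′ to 3′ on the strand of the gene, are chr13:113180966-113181215 (minus), chr2:150570165-150570414 (plus), chr13:113100982-113101231 (minus) and chr14:56262335-56262584 (minus).
*Gzmk*: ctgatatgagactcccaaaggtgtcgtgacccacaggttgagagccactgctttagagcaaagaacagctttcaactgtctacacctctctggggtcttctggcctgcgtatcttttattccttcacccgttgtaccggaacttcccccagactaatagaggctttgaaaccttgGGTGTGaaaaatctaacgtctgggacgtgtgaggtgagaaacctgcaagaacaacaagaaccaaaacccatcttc
*Cst7*: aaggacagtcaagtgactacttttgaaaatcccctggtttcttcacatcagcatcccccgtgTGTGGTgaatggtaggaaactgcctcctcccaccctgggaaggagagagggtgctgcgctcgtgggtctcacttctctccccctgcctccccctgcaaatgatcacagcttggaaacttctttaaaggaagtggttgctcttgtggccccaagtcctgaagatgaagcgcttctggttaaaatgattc
*Gzma*: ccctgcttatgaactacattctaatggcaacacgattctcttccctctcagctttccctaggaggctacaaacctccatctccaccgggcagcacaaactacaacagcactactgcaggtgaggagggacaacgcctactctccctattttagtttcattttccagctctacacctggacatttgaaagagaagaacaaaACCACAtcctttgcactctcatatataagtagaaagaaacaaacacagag
*Gzmb*: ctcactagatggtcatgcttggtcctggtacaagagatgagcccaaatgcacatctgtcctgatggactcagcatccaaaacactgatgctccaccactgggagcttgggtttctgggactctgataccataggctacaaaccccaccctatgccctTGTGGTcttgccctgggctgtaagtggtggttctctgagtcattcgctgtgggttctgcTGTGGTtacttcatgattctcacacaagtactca

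*Gzmk* held 1 match to the T-box letters and 0 to the RUNX letters, *Cst7* and *Gzma* held 1 match each to the RUNX letters, and *Gzmb* held 2, with 0 matches to the T-box letters in these 3. Over the 9 members with a window, 7 held the RUNX letters in at least 1 window and 4 held the T-box letters (*Gzmk*, *Nkg7*, *Fasl* and *Gzmm*). These counts are per gene over 11 windows, with 2 each for *Gzmm* and *Srgn*. The shares of all promoters are per window, so the 2 are not in the same unit. The 2 members placed in 1 type, *Gzmk* and *Cst7*, shared neither motif in these windows. A match is a description of letters, not a binding site.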

How the data were processed

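Colon RNA of 10 mice was sequenced, and groups and numbers come from the sample labels. Per the file headers and the values, the authors deposited 1 table with raw read counts per gene and with FPKM, which the values show to be the count divided by exonic length and library total. The submitters' processing notes name cutadapt 1.9.1 and HISAT2 2.2.1, while the counting program, its use of strand and the genome build are not given in the sources used here. Genes were kept with filterByExpr (minimum count 10), scaled with TMM and fitted by edgeR 4.0.16 in R 4.3.3 with the two-sided quasi-likelihood test and Benjamini-Hochberg adjustment over the 16545 kept, after the code was tested on simulated data. Log2 CPM has a prior count of 1. Alternatives used DESeq2 1.42.0 and limma 3.58.1. Counting noise did not account for the differences between any 2 libraries of a group (chi-square per gene at least 14.7), and that libraries are separate mice rests on the labels. The members, the 19 pathway and marker lists (*Vamp7* and *Prac1* were not used here) and the tests were chosen with earlier results of these data known. Named genes are the members, list genes at an unadjusted p-value under 0.05 or up to 5 with the largest log2 fold change, T cell reference genes and the 5 genes most like each of 4 members. *Ctsc*, *Lamp1*, *Eomes*, *Car1*, *Trgc1*, *Trgc2*, *Trdc* and the most abundant or lowest genes of lists were named after their values were seen. The most abundant gene of 1 list is not reported here.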

Additional observations from a re-analysis of the deposited data

Results flagged for a closer look

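In 24 groups of 5 values (the CPM of the 10 members, the difference between the *Gzmk*, *Cst7* pair and the *Gzma*, *Gzmb* pair, and the *Gzmk* share, in each group), 2 held a mouse far from the others, DSS-1 both times, where chance gives about 1 in 20. *Srgn* in DSS-1 was at 325 CPM, and the gap to the next DSS mouse, DSS-3 at 57.2 CPM, was 0.89 of the whole range of the group, above Dixon's critical value of 0.71. The log2 difference between the pairs in DSS-1 was -2.21, with -3.25 in the nearest DSS mouse, a gap of 0.79 (0.794) of the range. DSS-1 was low in *Gzma* and *Gzmb* but not in *Cst7*. No cause of either value was tested.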

How the results depend on the processing

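All 161 log2 fold changes of the 9 tested members under the alternatives were negative, and 3 moved by more than 1 SD between mice. These were *Gzmk* (-1.42) and *Cst7* (-1.04) on log2(FPKM + 1), where the pseudocount shrinks low genes, and *Srgn* without DSS-1 (-0.60). *Prf1* (-0.299) and *Fasl* (-0.399) also shrank on log2(FPKM + 1), by no more than 1 SD. Leaving out 1 mouse at a time, *Gzmk* ranged from -2.59 to -2.10, *Cst7* from -2.01 to -1.65, *Gzmb* from -1.47 to -0.78 and *Gzma* from -0.68 to -0.31. The difference between the pairs was -0.478 on log2(FPKM + 1), -1.21 on log2(FPKM + 0.1), -1.46 to -1.06 without 1 mouse and -1.02 without DSS-1 and DSS-5, left out together after the data were seen. The *Gzmk* share differed by -4.94 percentage points, and by -5.53 to -4.42 without 1 mouse. The correlation without 1 mouse ranged from 0.885 to 0.934 for *Gzmk* and *Gzmb*, from 0.816 to 0.927 for *Gzma* and *Gzmb* and from 0.602 to 0.790 for *Gzmk* and *Gzma*. With 9 mice fewer pairings can be drawn. The adjusted p-value crossed 0.05 in 1, 7 and 2 of 10 runs of these pairs. The call was lost in these runs for the first 2 pairs and gained for *Gzmk* and *Gzma*, and the cause was not tested.

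At an adjusted p-value under 0.05, DESeq2 called 30 genes, 2 of them members (*Gzmk* and *Cst7*, selected on this contrast), and edgeR called 0 to 3 without 1 mouse, the 3 without DSS-5. Genes lower at an unadjusted p-value under 0.05 numbered 976 with no filter, where more genes were tested, and 321 (without DSS-1) to 997 (without ceAF-1) without 1 mouse. Genes higher numbered 308 on log2(FPKM + 1), 291 on log2(FPKM + 0.1) and 391 to 875 without 1 mouse. Genes without overlap numbered 146 lower and 54 higher in FPKM, and 96 to 355 and 160 to 346 without 1 mouse; where fewer samples do not account for a change, the cause was not tested.

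Mice of the same number shared only that number: deviations of such mice correlated between -0.25 and 0.29, and not every mouse correlated best with its own number. With the replicate block, 341 genes were lower and 353 higher at an unadjusted p-value under 0.05 and 0 passed the adjustment. The paired mean difference between the pairs was -1.29, which equals the difference of group means by construction. *Gzmm*, *Prf1* and, in ceAF mice, *Gzmk* and *Cst7* rest on few reads (5 to 23 per ceAF mouse for *Gzmk*), which limits their precision more than that of *Gzma* and *Gzmb*.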
